A study of Mus musculus with 6 samples.

Results

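The miR-106b-25 cluster consists of 3 miRNA genes, Mir106b, Mir93 and Mir25, that lie side by side in 1 intron of the mouse gene Mcm7. Its 6 mature arms, chosen by name, were all among the 1546 mature miRNAs measured by small RNA sequencing of mouse liver. The NC group comprised 3 C57BL/6 mice on a normal diet, and the MAFLD group comprised 3 C57BL/6 mice on a high-fat diet. All mice were male, entered the experiment at 8 weeks of age and stayed on their diet for 16 weeks. MAFLD (metabolic dysfunction-associated fatty liver disease) was thus modelled by diet alone. The labels name every sample as liver of these mice, although their protocol fields describe culture of HepG2, a human liver cancer cell line. Each library came from 1 replicate of liver tissue, and NC1 to NC3 and MAFLD1 to MAFLD3 denote the libraries. In bulk liver, fewer cells of a type and less RNA per cell cannot be told apart.

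A miRNA gene is transcribed into a hairpin that is cut by Drosha and Dicer into a 5p and a 3p arm. One arm is usually loaded into Argonaute and kept, while the other arm is mostly degraded. The loaded arm pairs with messenger RNAs mainly through its seed, bases 2 to 8 from the 5′ end, and lowers their translation and stability. The miR-106b-25 cluster is a paralogue of the miR-17-92 cluster, and its host Mcm7 encodes a subunit of the helicase that opens replication origins. Both clusters are known for limiting the cell cycle inhibitor p21 and the pro-apoptotic protein Bim, and have been studied in growing liver and liver tumours.

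The mature sequences from RefSeq (GRCm38.p6), found for 6 of 6 members, are shown because the seed decides which other miRNAs can share targets with a member. They run 5′ to 3′ with the seed in capitals.
mmu-miR-106b-5p: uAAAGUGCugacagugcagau
mmu-miR-93-5p: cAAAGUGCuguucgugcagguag
mmu-miR-25-3p: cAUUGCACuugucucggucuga
mmu-miR-106b-3p: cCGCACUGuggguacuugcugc
mmu-miR-93-3p: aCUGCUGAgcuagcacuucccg
mmu-miR-25-5p: aGGCGGAGacuugggcaauugc
MiR-106b-5p and miR-93-5p carried the same seed, and miR-25-3p carried another. The other 3 arms each had a seed of their own. The closest relatives from the miR-17-92 cluster, used below for comparison within libraries, were the following.
mmu-miR-17-5p: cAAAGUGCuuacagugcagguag
mmu-miR-20a-5p: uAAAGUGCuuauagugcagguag
mmu-miR-92a-3p: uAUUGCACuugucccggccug
Aligned without gaps from the 5′ end, miR-106b-5p differed from miR-20a-5p at 3 of 21 bases and miR-93-5p from miR-17-5p at 4 of 23. MiR-25-3p differed from miR-92a-3p at 3 of 21 bases. The same miR-92a-3p sequence comes from Mir92-1 on chromosome 14, beside Mir17 and Mir20a, and from Mir92-2 on chromosome X.

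The 3 hairpins lie on the minus strand of chromosome 5 in GRCm38, within 498 bases. Mir106b (ENSMUSG00000065514.1, 82 bases) is at chr5:138165737-138165818 and comes first in the direction of transcription. Mir93 (ENSMUSG00000065527.1, 88 bases) is at chr5:138165523-138165610, and Mir25 (ENSMUSG00000065394.1, 84 bases) is at chr5:138165321-138165404. All 3 fall in intron 13 of the 15-exon transcript Mcm7-201, at chr5:138165162-138165909. Mir93 and Mir25 also overlap an exon of the retained-intron transcript Mcm7-202. The hairpins are printed with both mature arms in capitals, since the arms are compared with each other below.
Mir106b hairpin: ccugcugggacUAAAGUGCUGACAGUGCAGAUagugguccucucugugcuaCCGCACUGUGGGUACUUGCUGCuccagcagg
Mir93 hairpin: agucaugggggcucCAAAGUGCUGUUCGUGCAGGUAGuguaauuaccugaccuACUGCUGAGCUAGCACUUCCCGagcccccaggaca
Mir25 hairpin: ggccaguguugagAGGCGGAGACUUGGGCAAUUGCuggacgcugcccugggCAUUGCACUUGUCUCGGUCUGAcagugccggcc

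The start region of the host gene is shown because the intronic hairpins are annotated inside its transcript. The RefSeq window for Mcm7 at chr5:138171834-138172133 (GRCm38.p6, minus strand) holds 2 matches, in capitals, to the E2F-type motifs TTTGGCGC, TTTCCCGC, TTTCGCGC and TTTGCCGC searched on both strands.
Mcm7 promoter: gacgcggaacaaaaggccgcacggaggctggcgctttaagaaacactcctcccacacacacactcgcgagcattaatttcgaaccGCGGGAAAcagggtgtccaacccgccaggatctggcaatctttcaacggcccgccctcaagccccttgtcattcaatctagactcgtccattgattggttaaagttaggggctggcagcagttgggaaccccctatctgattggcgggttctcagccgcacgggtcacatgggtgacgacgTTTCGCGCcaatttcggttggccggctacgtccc
Such a motif occurred in 2.26% of 32851 RefSeq promoter windows of this length, and a second Mcm7 window at chr5:138171217-138171516 held none. A match is a description of the letters and not of binding, and neither Mcm7 RNA nor promoter activity was measured in these libraries.

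The libraries held between 1336935 and 4685712 reads on miRNAs. Levels are given as CPM, reads scaled so that all listed miRNAs of a library add up to the same total. On this scale 3 reads, taken as the smallest level resolved, amounted to between 0.640 and 2.24 CPM. The hepatocyte miRNA list (miR-122-5p and miR-122-3p) summed to between 42311 and 85374 CPM in NC and between 55517 and 70927 in MAFLD. A single miRNA, miR-148a-3p, took 71.4% of reads in NC1 and 63.3% in NC2, but 48.5% in NC3 and between 46.8% and 56.7% in MAFLD. The neuronal list (3 of 3 measured: miR-9-5p, miR-9-3p and miR-124-3p) summed to 362 CPM in NC1 and 568 in NC2, against 9.72 in NC3 and between 4.70 and 13.7 in MAFLD. NC1 and NC2 stood apart from the other 4 libraries on both measures. MiR-9-3p and miR-124-3p were both at 0 reads in NC3 and MAFLD1, and miR-124-3p also in MAFLD2. The endothelial list (2 of 2: miR-126a-3p and miR-126a-5p) summed to between 4710 and 6587 CPM in NC and between 7659 and 10155 in MAFLD. These sums did not overlap, but miR-126a-5p alone did, with 289 CPM in NC3 and 280 in MAFLD2. Of all tested miRNAs, 15.2% were higher in MAFLD without overlap. With miR-148a-3p left out of the total, miR-126a-3p overlapped as well, at 16008 CPM in NC1 and 15147 in MAFLD3. The immune list (5 of 5) ranged from 135 to 247 against 190 to 353 CPM, the mesenchymal and stellate list (5 of 5) from 12612 to 30033 against 19775 to 26950, and the erythroid list (4 of 4) from 602 to 1212 against 431 to 1000. The mesenchymal and stellate sum was mostly miR-143-3p, at 12080 to 28509 CPM in NC and 18515 to 25403 in MAFLD. Median log2 fold changes of MAFLD over NC were 0.81 for that list, 0.80 for the immune list and 0.85 for the endothelial list. The median was 0.54 for the hepatocyte list, −0.29 for the erythroid list and 0.43 for all tested miRNAs. MiR-122-3p was higher without overlap, at 147 to 224 CPM in NC and 271 to 400 in MAFLD. The part of these differences in the results below was not tested, except for miR-148a-3p, which was removed from the total in one analysis.

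The 3 abundant arms, miR-25-3p, miR-93-5p and miR-106b-5p, had fitted folds of 1.65 to 1.70 for MAFLD over NC on the log2(CPM + 1) scale, but no member passed the test. Of 5 members tested, 0 had an adjusted p under 0.05 (limma on log2(CPM + 1), Benjamini-Hochberg over 501 miRNAs), where 0.2% of all tested miRNAs did (1 miRNA). At an unadjusted p under 0.05, 0 of 5 were higher, against a background of 13.4%. By adjusted p, edgeR and DESeq2 on the reads also called 0 members, where they called 1 and 28 of all 501 miRNAs. In 0 of 5 were the 2 groups free of overlap, against 15.2% of all tested miRNAs that did not overlap and were higher in MAFLD. The median log2 fold change was 0.73 for the 5 members and 0.43 for all 501 miRNAs, of which 357 were above 0. With 3 livers per group, the intervals given below include differences of 2-fold or more.

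MiR-25-3p, which shares its seed with miR-92a-3p and is known to bind the messenger RNA of Bim, was the most abundant member and ranked between 49 and 63 among the miRNAs of each library. Its level was 242 CPM in NC1, 260 in NC2 and 477 in NC3 (618, 408 and 638 reads), and 615 in MAFLD1, 440 in MAFLD2 and 505 in MAFLD3 (1639, 2061 and 775 reads). NC1 and NC2 were below every MAFLD library, whereas NC3 was above MAFLD2. The means were 327 ± 131 CPM in NC and 520 ± 88.5 in MAFLD (SD, n = 3 each). The log2 fold change was 0.73 with an SE of 0.37 (95% interval −0.060 to 1.51, limma adjusted p = 0.304).

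MiR-93-5p, a member of the miR-17 seed family known to target p21, was the second most abundant. It was at 91.4 CPM in NC1, 81.6 in NC2 and 171 in NC3, and at 208 in MAFLD1, 147 in MAFLD2 and 208 in MAFLD3. NC3 again lay among the MAFLD libraries. The means were 114 ± 48.8 CPM in NC and 188 ± 35.1 in MAFLD (SD, n = 3 each), with a log2 fold change of 0.77 (SE 0.40, 95% interval −0.091 to 1.63, limma adjusted p = 0.310).

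MiR-106b-5p, the other arm with the miR-17 seed, was also lowest in NC1 and NC2, at a lower level. It was at 21.6 CPM in NC1, 21.7 in NC2 and 44.9 in NC3, from 55, 34 and 60 reads. In MAFLD it was at 53.6, 38.4 and 50.8 CPM in replicates 1 to 3, from at least 78 reads each. MAFLD2, the deepest library, had the lowest MAFLD level of all 3 abundant arms. The means were 29.4 ± 13.4 CPM in NC and 47.6 ± 8.11 in MAFLD (SD, n = 3 each), with a log2 fold change of 0.75 (SE 0.45, 95% interval −0.21 to 1.71, limma adjusted p = 0.378).

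MiR-106b-3p, the opposite arm of the Mir106b hairpin, did not show this difference in means. Its level was 46.7 CPM in NC1, 31.9 in NC2 and 43.4 in NC3, and 46.9, 34.1 and 52.1 in MAFLD1 to MAFLD3. The groups covered nearly the same range, with means of 40.6 ± 7.78 and 44.4 ± 9.25 CPM (SD, n = 3 each). The log2 fold change was 0.12 (SE 0.42, 95% interval −0.77 to 1.02, limma adjusted p = 0.902), and its sign turned with the scaling of the libraries, to −0.34 under median-ratio scaling and to −0.22 once miR-148a-3p was left out of the total.

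The remaining arms were at the limit of the depth. MiR-93-3p had 1, 1 and 4 reads in NC and 2, 5 and 1 in MAFLD, at most 2.99 CPM, and its log2 fold change of −0.20 (SE 0.63, limma adjusted p = 0.892) rested on those 14 reads. MiR-25-5p had 2, 1 and 4 reads in NC and 0, 2 and 1 in MAFLD, and its mean of 0.915 CPM was below the minimum of 1 CPM for testing. The 0 reads among 2665458 in MAFLD1 allow a level of up to 1.13 CPM. No difference was detectable at this depth for these arms.

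**Figure D1:**
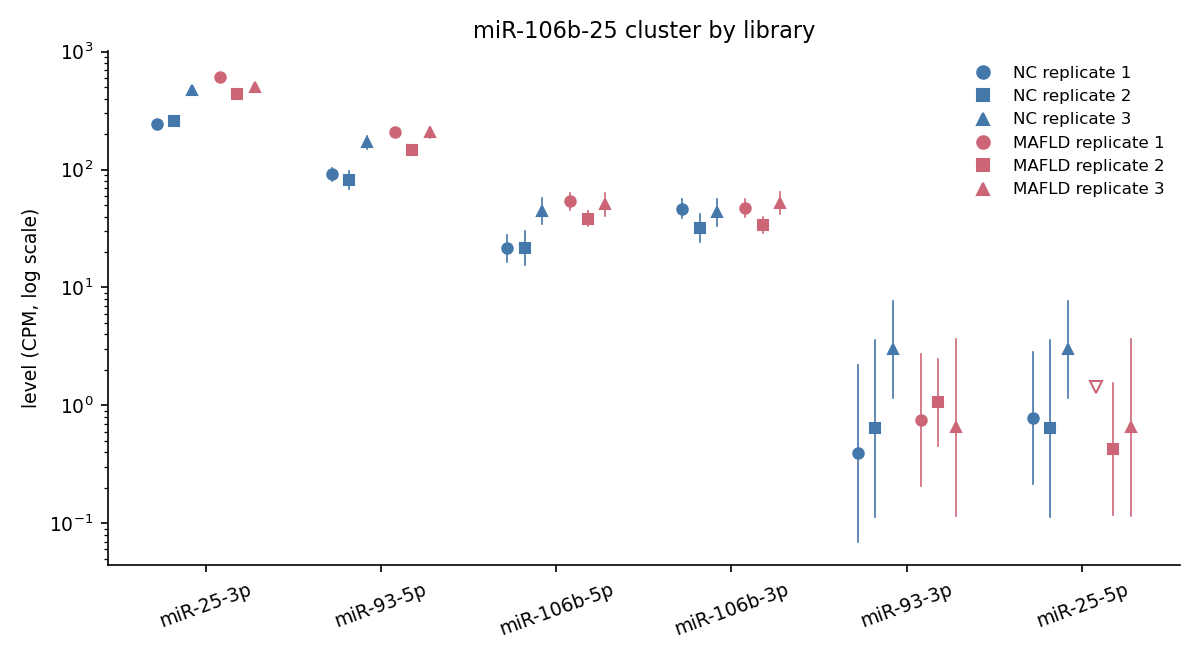
Levels of the 6 arms in CPM on a log axis, 1 point per library, with vertical lines for 95% Wilson intervals of the read share (counting error only). The open triangle for miR-25-5p marks the upper limit in MAFLD1, which had 0 reads. For miR-25-3p, miR-93-5p and miR-106b-5p, NC1 and NC2 lie lowest and NC3 lies among the MAFLD libraries.

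How far the groups lay apart depended on the scaling and on NC3. NC1 and NC2, the libraries with the largest miR-148a-3p shares and the high neuronal sums, held the lowest CPM of the 3 abundant arms. When miR-148a-3p was left out of the total, miR-25-3p was at 847, 709 and 927 CPM in NC1 to NC3 and at 1155, 1017 and 1044 in MAFLD1 to MAFLD3. On that scale miR-93-5p was at 319, 222 and 331 against 391, 340 and 430 CPM, and miR-106b-5p at 75.4, 59.1 and 87.2 against 101, 88.8 and 105 CPM. All 3 abundant arms were then lower in every NC library than in any MAFLD library, as were 14% of all 500 miRNAs on that scale. These 3 arms come from neighbouring hairpins and are not independent of each other. The differences between groups were at the same time smaller, with log2 fold changes of 0.38 for miR-25-3p, 0.43 for miR-93-5p and 0.42 for miR-106b-5p and adjusted p-values of 0.360, 0.403 and 0.521 by limma. The median of all miRNAs moved from 0.43 to 0.16, so that the 3 arms remained above it.

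Median-ratio scaling, which equalises the typical miRNA between libraries, also left the 3 abundant arms without overlap. MiR-25-3p was at 383, 335 and 381 in NC1 to NC3 and at 477, 456 and 386 in MAFLD1 to MAFLD3 on that scale, and miR-106b-5p at 34.1, 27.9 and 35.8 against 41.6, 39.9 and 38.9. For miR-25-3p the gap was narrow, from 383 in NC1 to 386 in MAFLD3, and 11.6% of all miRNAs were likewise higher without overlap. Their log2 fold changes were 0.26 for miR-25-3p, 0.31 for miR-93-5p and 0.30 for miR-106b-5p, where the median of all miRNAs was 0.044. Their adjusted p-values were 0.500, 0.497 and 0.621 by limma.

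**Figure D2:**
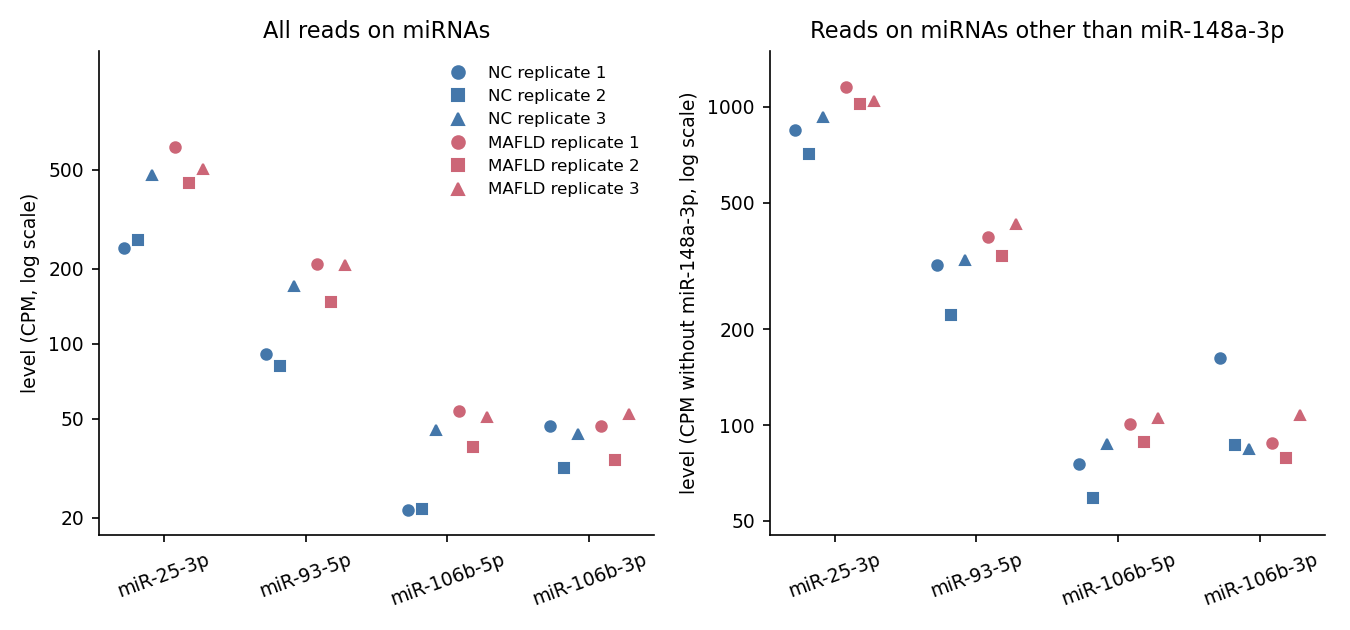
Levels of the 4 more abundant arms, 1 point per library, with the CPM of all reads on miRNAs at left and the CPM of reads other than miR-148a-3p at right (both log axes). Without miR-148a-3p, all 3 MAFLD points lie above all 3 NC points for miR-25-3p, miR-93-5p and miR-106b-5p, and the points of miR-106b-3p overlap in both panels.

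On the CPM scale, the call turned on NC3. Without it, miR-25-3p (log2 fold change 1.03, limma adjusted p = 0.0146), miR-93-5p (1.09, adjusted p = 0.0201) and miR-106b-5p (1.09, adjusted p = 0.0447) passed. In that fit 21.5% of all 498 tested miRNAs passed as higher in MAFLD, and the median over all of them was 0.66. The NC libraries left in that fit were NC1 and NC2, those with the high miR-148a-3p shares and neuronal sums. With median-ratio scaling and NC3 left out, 0 members passed (adjusted p of 0.406, 0.387 and 0.423 by limma). In that fit 45 of 498 miRNAs passed in either direction, and the median of all was 0.11. With NC1 and NC2 left out together, an analysis added after the data were seen, only NC3 was left in the NC group. The log2 fold changes were then 0.11, 0.12 and 0.070, where the median of all miRNAs was −0.040.

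The abundant arms kept a nearly fixed proportion to each other in all 6 livers. MiR-25-3p accounted for 60.1% to 66.5% of the cluster's reads, miR-93-5p between 20.6% and 25.4%, and miR-106b-5p between 5.35% and 6.22%. The ratio of miR-93-5p to miR-106b-5p was 4.24, 3.76 and 3.80 in NC1 to NC3 and 3.88, 3.83 and 4.09 in MAFLD1 to MAFLD3. MiR-25-3p to miR-93-5p was between 2.65 and 3.19 in NC and between 2.43 and 2.99 in MAFLD. Neither ratio separated the groups. A steady proportion was not particular to the cluster, since the non-members miR-152-3p and let-7g-5p followed miR-25-3p more closely than either arm did, as given below. Read shares also reflect how well each sequence takes up adapters, so the order of the arms is that of reads and not of molecules.

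MiR-106b-3p was the exception. It took 11.6% of the cluster's reads in NC1 and 8.04% in NC2, but 5.85% in NC3 and between 5.07% and 6.38% in MAFLD. The share of miR-106b-5p among the reads of both Mir106b arms was 31.6% in NC1 (95% Wilson interval 25.2% to 38.9%), 40.5% in NC2 (30.6% to 51.2%) and 50.8% in NC3 (41.9% to 59.7%). In MAFLD it was 53.4% (47.4% to 59.2%), 52.9% (47.6% to 58.2%) and 49.4% (41.7% to 57.1%). NC3 lay between the MAFLD libraries, and only the interval of NC1 lay below those of all MAFLD libraries. Mir93 and Mir25 were, in contrast, read almost entirely from 1 arm, with miR-93-5p at 98.3% to 99.7% and miR-25-3p at 99.4% to 100%. The intervals cover counting error only.

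**Figure D3:**
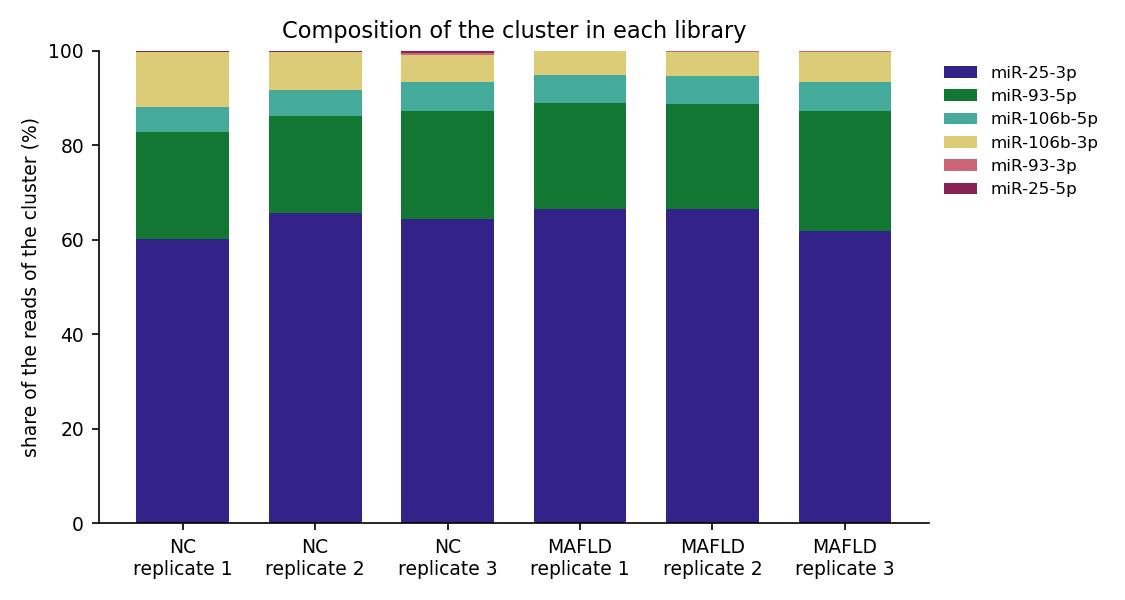
Share of the cluster's reads taken by each arm, in percent, 1 stacked bar per library. MiR-25-3p takes between 60.1% and 66.5% everywhere, and the share of miR-106b-3p is widest in NC1 at 11.6%.

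The balance of the arms was compared with limma on log2((5p + 1)/(3p + 1)) over 105 miRNA names with both arms at a mean of at least 1 CPM. The balance of Mir106b differed by 0.63 on the log2 scale towards the 5p arm in MAFLD (SE 0.38, adjusted p = 0.438). That of Mir93 differed by 0.97 in the same direction (SE 0.43, unadjusted p = 0.0463, adjusted p = 0.324), with miR-93-3p at 1 to 5 reads a library. Neither passed, and 0 of all 105 names did (0% by adjusted p), whereas 15 (14.3%) had an unadjusted p under 0.05. No count model was run on the balance. Mir25 was not tested there because of the low level of miR-25-5p.

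Relative to its seed relative miR-92a-3p, miR-25-3p was lower in every MAFLD liver than in any NC liver. The reads of miR-92a-3p cannot be credited to the miR-17-92 cluster alone, since the same sequence is also encoded on chromosome X. The ratio of miR-25-3p to miR-92a-3p was 0.819, 0.909 and 0.889 in NC1 to NC3 and 0.604, 0.659 and 0.637 in MAFLD1 to MAFLD3 (means 0.872 ± 0.0473 and 0.633 ± 0.0276, SD, n = 3 each). Scaling of the libraries cancels in such a ratio, and NC3 lay with the other NC libraries. The difference was −0.46 on the log2 scale (two-sided exact permutation p = 0.1, the smallest that 3 against 3 allows, 0.15 adjusted over 3 ratios). Of the ratios of miR-25-3p to each of the 500 other tested miRNAs, 4.8% were likewise lower in MAFLD without overlap.

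The ratio of miR-106b-5p to miR-20a-5p, which have the same seed, was 0.309, 0.362 and 0.375 in NC1 to NC3 and 0.218, 0.300 and 0.298 in MAFLD1 to MAFLD3. Its groups did not overlap either, but the gap between NC1 and MAFLD2 was narrow. The difference was −0.38 on the log2 scale (two-sided exact permutation p = 0.1, adjusted 0.15), and 4.2% of the ratios of miR-106b-5p to other miRNAs were lower in MAFLD without overlap. MiR-93-5p to miR-17-5p was 2.74, 1.91 and 3.45 in NC1 to NC3 against 1.81, 2.25 and 2.28 in MAFLD1 to MAFLD3, with overlapping groups (difference −0.31, two-sided exact permutation p = 0.3, adjusted 0.3). In sequence, miR-106b-5p was equally close to miR-17-5p (3 of 21 bases differing), and miR-93-5p to miR-20a-5p (4 of 23). Sequence thus did not fix the pairing. The exchanged pairs were not tested, so overlap of the groups is given only for the pairs above.

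**Figure D4:**
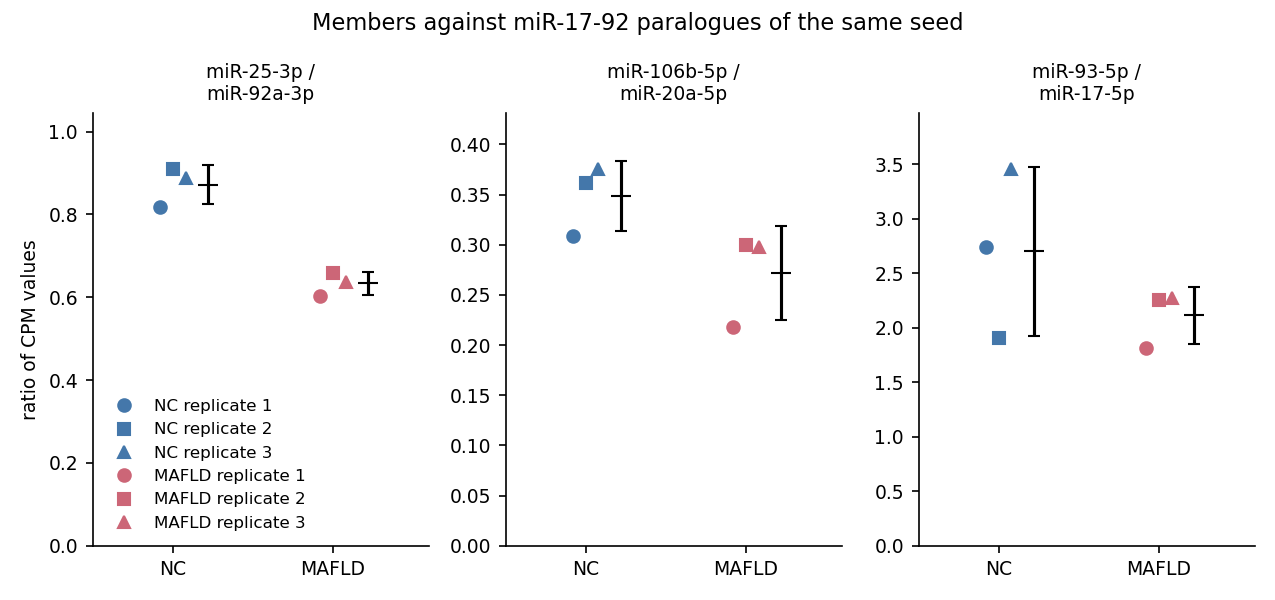
Ratios of CPM values within each library, 1 point per library, with the mean and SD of each group (n = 3) as black bars beside the points and axes from 0. The NC points of miR-25-3p to miR-92a-3p lie between 0.819 and 0.909 and the MAFLD points between 0.604 and 0.659, while the groups overlap for miR-93-5p to miR-17-5p.

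The CPM values behind these ratios were as follows for the relatives. MiR-92a-3p, the most abundant relative of miR-25-3p, was at 296, 286 and 537 CPM in NC1 to NC3 and at 1018, 668 and 792 in MAFLD1 to MAFLD3. Its log2 fold change was 1.19 (SE 0.36, limma adjusted p = 0.152), and on the reads it passed with DESeq2 (adjusted p = 0.0177, 28 of 501 miRNAs called) but not with edgeR (adjusted p = 0.0668). MiR-20a-5p was at 69.8, 59.9 and 120 against 246, 128 and 171 CPM (log2 fold change 1.13, SE 0.42, limma adjusted p = 0.208). MiR-17-5p was at 33.3, 42.7 and 49.4 against 115, 65.3 and 91.2 CPM (log2 fold change 1.08, SE 0.41, limma adjusted p = 0.212). All 3 were higher in each MAFLD library than in any NC library, as were 15.2% of all tested miRNAs.

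Of the 4 other miRNAs listed for the miR-17 seed (miR-17-5p, miR-20a-5p, miR-20b-5p and miR-106a-5p), 0 passed by adjusted p, 3 were higher at an unadjusted p under 0.05 (13.4% of all tested miRNAs were) and the median log2 fold change was 1.10, beside 0.43 over all. The 3 include miR-20b-5p, at 0 reads in every NC library and 9, 4 and 3 reads in MAFLD1 to MAFLD3. It met the minimum of 1 CPM only through MAFLD, so it could only count as higher. The median for this seed was 0.68 with miR-20b-5p set to its bound against 3 reads per library. Of 5 listed for the miR-92 seed, 4 were tested, 0 passed by adjusted p, 1 was higher at an unadjusted p under 0.05 and the median was 0.64. The miR-17-92 and miR-106a-363 clusters together list 20 arms, of which 11 were tested. Among these 11, 0 passed by adjusted p, 5 were higher at an unadjusted p under 0.05, beside the same 13.4%, and 0 were lower. The 5 again include miR-20b-5p. The median of the 11 was 1.04, or 0.77 with miR-20b-5p at its bound, and single arms ranged down to −0.083 for miR-363-3p. The 20 arms summed to 557 ± 203 CPM in NC and 1206 ± 298 in MAFLD, and the 6 members to 514 ± 198 and 801 ± 132 (SD, n = 3 each). The sums of the members were 403, 396 and 742 CPM in NC1 to NC3 and 924, 661 and 817 in MAFLD1 to MAFLD3, with NC3 above MAFLD2.

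**Figure D5:**
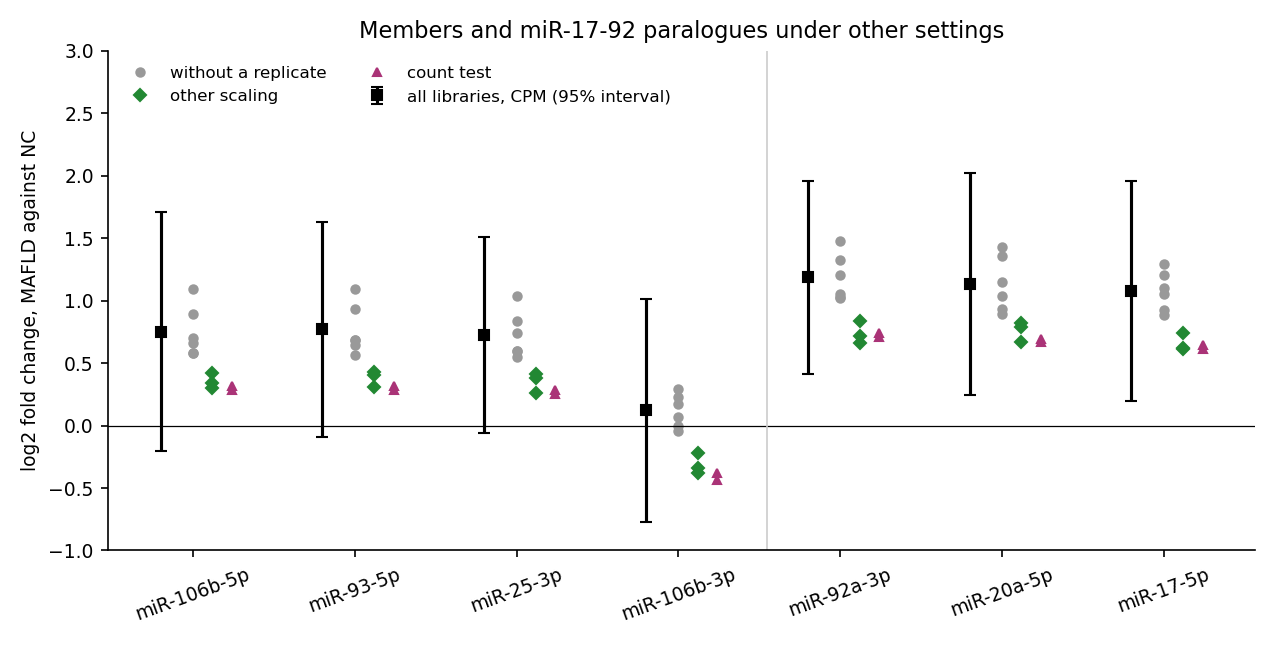
Log2 fold change of MAFLD against NC for 4 members (left of the grey line) and 3 miR-17-92 paralogues (right). Black squares with 95% intervals show CPM with all libraries, grey points each library left out in turn, green diamonds 3 other scalings (median-ratio, without miR-148a-3p, quantile) and purple triangles the count tests with edgeR and DESeq2. Every point of miR-25-3p, miR-93-5p and miR-106b-5p is above 0, the scalings and count tests lie below the value from CPM, and miR-106b-3p lies on both sides of 0.

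The miRNAs with a profile over the 6 libraries most like that of miR-25-3p were miR-152-3p, let-7g-5p, miR-22-3p, miR-27b-3p and let-7c-5p among non-members. Their root-mean-square distances from it in centred log2(CPM + 1) were 0.0505, 0.0732, 0.0854, 0.0911 and 0.0950. MiR-106b-5p was at position 3 of the 500 other miRNAs with a distance of 0.0803, and miR-93-5p at position 11 with 0.126. MiR-92a-3p was at position 72 with 0.237, and miR-106b-3p at position 203 with 0.457. The other cluster arms with a seed shared with miR-17-92 were thus nearer to miR-25-3p than its own seed relative, and all these profiles share the same libraries and totals.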

How the data were processed

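Small RNA was sequenced from whole liver of 3 NC and 3 MAFLD mice. Per the labels, RNA was freed of modifications that hinder ligation or reverse transcription before library construction, and inserts of small RNA size were selected. The submitters' processing notes name FastQC, cutadapt, Bowtie, edgeR and GRCm38. The deposited values are CPM of 1546 mature miRNAs, relative to the reads on all listed miRNAs. How reads that fit several paralogues were assigned is not given in the sources used here. In no abundant member did another name have like reads.

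Whole reads were recovered from the CPM values (100% within 0.02 of a whole number) and gave depths and 95% Wilson intervals. Groups came from the sample titles. Limma 3.58.1 in R 4.3.3 (lmFit, eBayes with trend) compared log2(CPM + 1) over the 501 miRNAs whose mean reached 1 CPM, in two-sided tests with Benjamini-Hochberg adjustment and a threshold of 0.05. Arm balance used the same test, and ratios to paralogues an exact permutation test (scipy 1.17.1). Fold changes on this scale understate changes of low miRNAs. Alternatives were other pseudocounts, filters and scalings, limma without trend, a replicate block, each library left out, and edgeR 4.0.16 and DESeq2 1.42.0 on the recovered reads. The fits were tested on simulated data. Sequences and positions came from RefSeq (GRCm38.p6) and GENCODE annotation of GRCm38.

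All 6 members were named, with the seed relatives, the paralogous clusters (values for miR-17-5p, miR-20a-5p and miR-92a-3p) and the 5 non-members nearest in profile to the most abundant member. Members and lists were chosen with earlier results of these data known. Replicates are separate samples by their labels, and each group has 3. The replicate numbers, shared by both groups, belong to different mice, and same-numbered libraries did not deviate together (r = 0.012, −0.020 and −0.046).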

Additional observations from a re-analysis of the deposited data

How the results depend on the processing

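MiR-106b-5p, miR-93-5p and miR-25-3p were higher in MAFLD in each of 19 alternatives, with log2 fold changes of 0.070 to 1.09, 0.12 to 1.09 and 0.11 to 1.03. The other filters, limma without trend and the replicate block could not change these fold changes and say nothing on direction. The number of members past the adjusted p was 0 in the main analysis and ranged from 0 to 3 when a library was left out, with 3 only without NC3. With median-ratio scaling and NC3 left out it was 0 of 4, where 45 of 498 miRNAs passed in either direction. MiR-106b-3p turned to a negative log2 fold change with median-ratio scaling (−0.34), CPM without miR-148a-3p (−0.22), quantile normalization (−0.38), edgeR (−0.38), DESeq2 (−0.44) and median-ratio scaling without NC3 (−0.52), and ranged from −0.041 to 0.29 when a library was left out, being negative without NC2 (−0.041) and without MAFLD3 (−0.0032). The cause was not tested. Over all miRNAs, 1 of 501 passed in the main analysis, 128 of 498 without NC3, 28 of 501 with DESeq2, 11 of 1467 with no filter and 5 of 501 with the replicate block. With that block, which does not pair mice, 0 members passed, and the adjusted p was 0.332 for miR-25-3p, 0.330 for miR-93-5p and 0.390 for miR-106b-5p. Leaving out a library kept the ratio of miR-25-3p to miR-92a-3p between −0.50 and −0.43 on the log2 scale, that of miR-106b-5p to miR-20a-5p between −0.46 and −0.23 and that of miR-93-5p to miR-17-5p between −0.53 and −0.11. Arm balance stayed between 0.35 and 0.91 for Mir106b and between 0.82 and 1.23 for Mir93, with 0 passing. Mir25 was fitted only with no filter (−1.49), without MAFLD1 (−1.16) and without MAFLD2 (−1.66), each towards the 3p arm in MAFLD. Its unadjusted p-values by limma were 0.0042, 0.019 and 0.0073, and the adjusted ones 0.379, 0.322 and 0.194. Mir93 had no value without NC3, because miR-93-3p then fell below the minimum level for testing. Depth limited miR-93-3p and miR-25-5p, read at most 5 times a library.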
